A study of Mus musculus with 10 samples.

Results

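The 7 genes described here encode soluble carriers of lipid-modified proteins, the small GTPases Arl2 and Arl3 that unload them, the Arl3 activator Arl13b, and a ciliary cargo. They were taken by symbol from a list of 38803 gene symbols measured in each library, as Pde6d, Unc119, Unc119b, Arl2, Arl3, Arl13b and Inpp5e, and all 7 were found. The symbols were chosen with the comparison of mutants and controls in view, so the differences between the groups in these genes are given as a description. The counts of members called in fits over the whole table are printed beside the counts over all genes and support nothing. Total RNA of the dorsal telencephalon, the tissue that forms the cerebral cortex, was sequenced at embryonic day 12 in 5 mutant and 5 control libraries of mixed C57/Bl6 and 129 SvJ background. Mutants had the genotype Rnu11Flx/Flx::Emx1-Cre+/- and controls Rnu11WT/Flx::Emx1-cre+/-, so every animal carried Emx1-Cre and at least 1 floxed copy of Rnu11. Rnu11 encodes the U11 small nuclear RNA of the minor spliceosome, which removes a rare class of introns. Emx1-Cre acts in progenitors of the dorsal telencephalon and their progeny, while blood, vessels and cells that migrate in from elsewhere keep their floxed alleles. No library with intact Rnu11 was measured. Nothing in the labels says whether a library came from 1 embryo or several, so p-values measure the spread between these libraries.

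Some proteins that carry a prenyl or myristoyl anchor cross the cytosol with the help of soluble carriers. Pde6d, named for a phosphodiesterase of photoreceptors, shields farnesyl and geranylgeranyl anchors in a hydrophobic pocket, and Unc119 and Unc119b do the same for myristoyl anchors. GTP-bound Arl3 releases both kinds of cargo, and Arl2 releases cargo from Pde6d. Arl13b, a GTPase of the ciliary membrane, activates Arl3 inside the primary cilium, so that cargo such as the lipid phosphatase Inpp5e is set free there. In the embryonic cortex radial glia extend a primary cilium into the ventricle. Loss of INPP5E or PDE6D function causes Joubert syndrome in humans.

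The libraries held between 9720000 and 20800000 fragments by a rough estimate from the smallest steps of the values. Rnu11 measured 712, 473, 511, 1344 and 1421 FPKM (fragments per kilobase of transcript, scaled by library size) in mutants 1 to 5, against 2386, 2031, 2817, 1913 and 2266 FPKM in controls 1 to 5. Its mean was 892 ± 458 FPKM in mutants and 2283 ± 353 FPKM in controls (SD, n = 5 each), and every mutant lay below every control (p = 0.00794 in an exact permutation test, two-sided, which cannot go lower with groups of 5). Mutants 4 and 5 and control 5 formed a library set of their own. The level of the Y RNA Rny1 relative to the ribonuclease P RNA Rpph1 was 5.02 to 6.30 in these 3 libraries and 0.414 to 0.707 in the other 7. The 10 markers of dorsal telencephalon each reached 1 FPKM. Their summed level was 470.2 to 539 FPKM in mutants and 312 to 472 FPKM in controls. Markers of other cells were present too, among them erythroid markers at 4434 to 9046 FPKM in mutants and 3505 to 8503 FPKM in controls. Microglial markers summed to 14.2 to 44.8 FPKM in mutants and 8.31 to 21.2 FPKM in controls, and ventral telencephalon markers to 9.26 to 26.2 FPKM in mutants and 6.62 to 65.4 FPKM in controls. Endothelial markers summed to 25.9 to 43.3 FPKM in mutants and 21.4 to 35.3 FPKM in controls, markers of meninges and pericytes to 14.6 to 48.1 FPKM in mutants and 13.6 to 40.4 FPKM in controls, and those of choroid plexus and hem to 137 to 358 FPKM in mutants and 179 to 375 FPKM in controls. Of 5 genes of motile cilia 4 reached 1 FPKM (all but Dnah5), and the list summed to 21.7 to 25.7 FPKM in mutants and 20.6 to 37.1 FPKM in controls. In each of the 8 lists, 0 markers were at 0 throughout. The part of these cells in the levels below was not tested. In bulk tissue, fewer cells that express a gene and less RNA per cell cannot be told apart.

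Pde6d, the carrier of prenylated proteins, was lower in each mutant than in any control. It lies on chromosome 1 from 86542994 to 86582629 on the minus strand (GRCm38, GENCODE M21), with 5 exons in its principal transcript of 1159 bases. Its span shares 1175 bases with Gm37152 on the opposite strand, which was not among the measured symbols. Pde6d measured 5.71, 5.61, 5.35, 11.3 and 9.47 FPKM in mutants 1 to 5. In controls 1 to 5 it measured 11.4, 13.9, 11.8, 14.0 and 18.1 FPKM. The highest mutant and the lowest control were almost level, at 11.3 and 11.4 FPKM, and came from different library sets. The mean was 7.49 ± 2.73 FPKM in mutants and 13.9 ± 2.65 FPKM in controls (SD, n = 5 each), which is 54.0% of control and a log2 difference of -0.85 (SE 0.20) on the log2(FPKM + 1) scale.

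Within each library set the groups did not overlap for Pde6d. In the first set it measured 5.56 ± 0.188 FPKM in 3 mutants and 12.8 ± 1.35 FPKM in 4 controls (SD), or 43.4% of control. In the second set it measured 9.47 and 11.3 FPKM in 2 mutants and 18.1 FPKM in the single control, or 57.4% of control. Both mutants of that set were also below its control for Arl2 (61.1% of control), Arl3 (81.1%), Arl13b (68.3%) and Inpp5e (81.2%). The share of all genes without overlap within a set was not counted. Rnu11 followed the same order of sets in mutants, with 565 ± 129 FPKM in mutants 1 to 3 (SD) and 1344 and 1421 FPKM in mutants 4 and 5, while its level in control 5, 2266 FPKM, lay within the range of the other controls. Pde6d was higher in the second set than in the first within both genotypes. These values rest on roughly 80 to 322 fragments per library, fewer than for any other member in each library but control 4, where Unc119 had 149 and Pde6d 158.

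**Figure D1:**
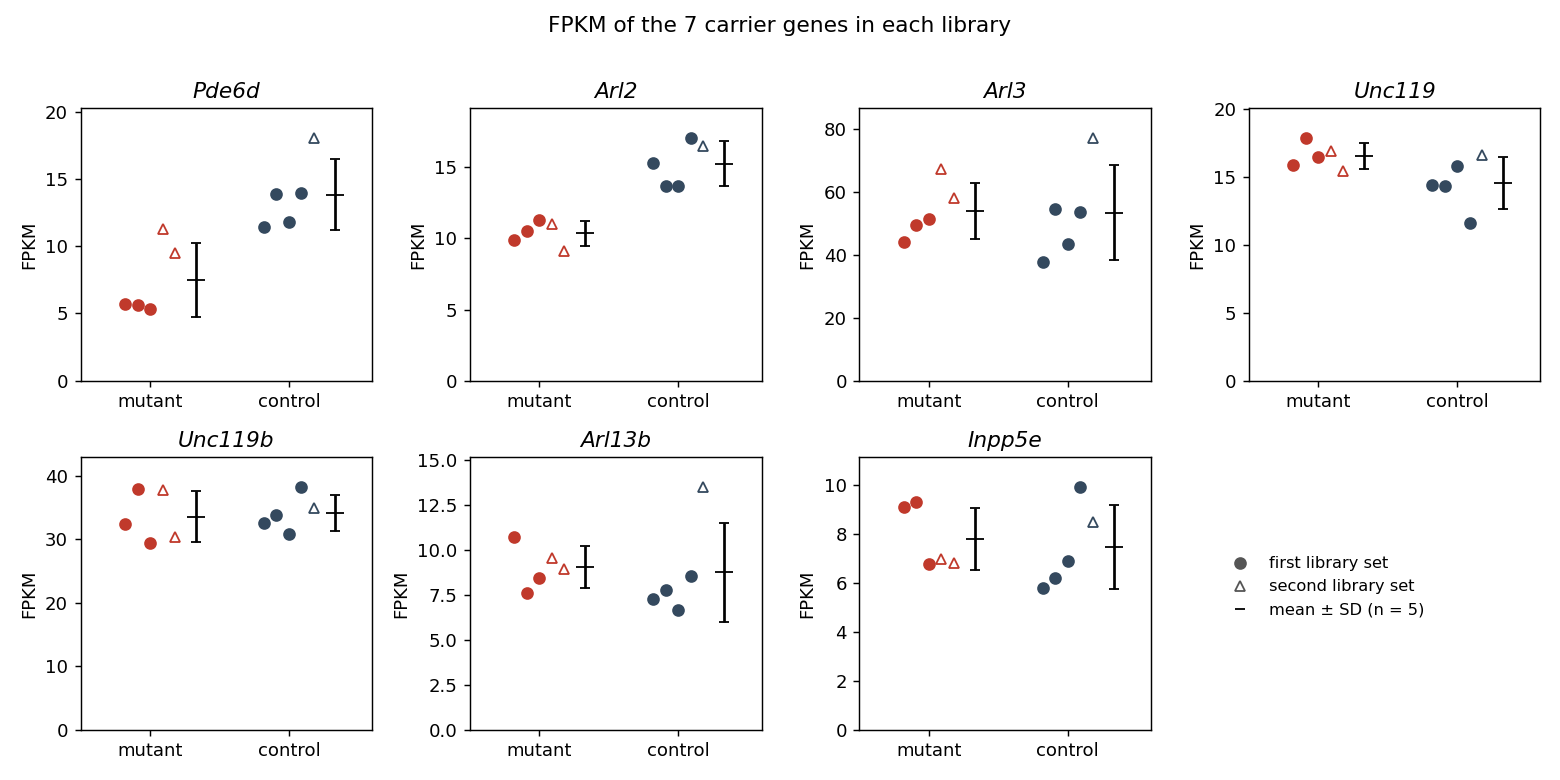
FPKM of each of the 7 genes in 5 mutant (left) and 5 control (right) libraries, with filled circles for the first and open triangles for the second library set and bars for the mean ± SD. Pde6d and Arl2 lie lower in every mutant than in any control (highest mutants 11.3 and 11.3 FPKM, lowest controls 11.4 and 13.7 FPKM), and the groups overlap for the other genes.

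The stretch of 250 bases before each annotated start is shown for Pde6d and Arl2, the members whose groups did not overlap, and for Arl3 as the relative of Arl2 (RefSeq, GRCm38.p6, minus strand, 5′ to 3′). Capitals mark matches, on either strand, to the E-box letters CACGTG, the GC box GGGCGG, the CCAAT box, GTTGCC as the core of the site of ciliary RFX factors, the TATA box as TATAAA, or ANNTGTAGT. The last of these was added after the Pde6d sequence had been read, and lies within the pattern known from human cells as a binding site of ZNF143.
Pde6d, chr1:86582786-86583035: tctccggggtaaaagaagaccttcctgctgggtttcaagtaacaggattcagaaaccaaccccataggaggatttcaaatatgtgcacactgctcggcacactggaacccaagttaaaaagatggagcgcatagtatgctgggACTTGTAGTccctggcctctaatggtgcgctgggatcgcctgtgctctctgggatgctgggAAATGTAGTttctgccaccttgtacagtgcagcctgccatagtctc
Arl2, chr19:6141138-6141387: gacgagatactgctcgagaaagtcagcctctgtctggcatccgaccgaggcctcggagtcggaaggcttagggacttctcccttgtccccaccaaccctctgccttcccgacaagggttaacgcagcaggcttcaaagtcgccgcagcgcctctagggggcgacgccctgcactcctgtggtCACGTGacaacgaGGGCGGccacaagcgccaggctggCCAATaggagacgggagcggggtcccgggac
Arl3, chr19:46573183-46573432: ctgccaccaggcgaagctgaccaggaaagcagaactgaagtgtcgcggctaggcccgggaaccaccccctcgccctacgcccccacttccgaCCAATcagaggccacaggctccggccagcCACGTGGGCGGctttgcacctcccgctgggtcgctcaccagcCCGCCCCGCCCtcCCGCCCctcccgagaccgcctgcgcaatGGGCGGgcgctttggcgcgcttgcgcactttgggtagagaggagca
The Pde6d stretch held ANNTGTAGT at 2 places and none of the other letters, and 3.72% of 32851 promoter stretches in the table held that pattern. The Arl2 and Arl3 stretches each held CACGTG, found in 6.02% of stretches, along with CCAAT, found in 33.8%, and GGGCGG, found in 32.7%. In Arl3 CACGTG shares letters with a GGGCGG match. Of the members' other stretches, that of Arl13b held GTTGCC, as 10.4% of stretches did, and that of Unc119b held TATAAA, as 12.4% did. No pattern was present in both Pde6d and Arl2. The RefSeq start of Pde6d differs from the GENCODE start, so this stretch lies outside the GENCODE gene. The Arl2 stretch lies within the GENCODE gene, and the Arl3 stretch overlaps its GENCODE gene at the start.

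The groups overlapped for both carriers of myristoylated proteins. Unc119 (chromosome 11, 78343482 to 78349164, plus strand) measured 15.9, 17.9, 16.5, 16.9 and 15.4 FPKM in mutants 1 to 5, against 14.4, 14.3, 15.8, 11.6 and 16.6 FPKM in controls 1 to 5. The groups overlapped, with means of 16.5 ± 0.956 FPKM in mutants and 14.6 ± 1.94 FPKM in controls (SD, n = 5 each) and a log2 difference of 0.18 (SE 0.11). That difference was 0.07 after median ratio rescaling, 0.08 after quantile normalization and 0.11 without control 4. In the first library set Unc119 was higher in 3 mutants, at 15.9 to 17.9 FPKM, than in 4 controls, at 11.6 to 15.8 FPKM. Its log2 difference in that set was 0.25, where the median of all genes tested there was 0.16. The share of all genes that separate in that set was not counted. In the second set control 5, at 16.6 FPKM, lay between the mutants, at 15.4 and 16.9 FPKM.

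Unc119b, its paralog (chromosome 5, 115122550 to 115134975, minus strand), stood at a higher level. It measured 32.4, 37.9, 29.4, 37.7 and 30.3 FPKM in mutants 1 to 5, against 32.5, 33.8, 30.9, 38.3 and 35.0 FPKM in controls 1 to 5. The ranges covered each other almost fully, and the log2 difference was -0.03 (SE 0.11). The ratio of Unc119 to Unc119b within a library was 0.496 ± 0.0421 in mutants and 0.431 ± 0.0799 in controls (SD, n = 5 each), with overlap.

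Arl2, the GTPase that unloads Pde6d and also takes part in tubulin folding with the cofactor Tbcd, was the other member without overlap. It lies on chromosome 19 from 6134374 to 6141548 on the minus strand. It measured 9.92, 10.5, 11.3, 11.0 and 9.13 FPKM in mutants 1 to 5. In controls 1 to 5 it measured 15.3, 13.7, 13.7, 17.1 and 16.5 FPKM. Each mutant lay below each control, and here the 2 library sets did not stand apart. The mean was 10.4 ± 0.881 FPKM in mutants and 15.3 ± 1.54 FPKM in controls (SD, n = 5 each), or 68.0% of control, and the log2 difference was -0.51 (SE 0.10). The first library set had Arl2 at 70.8% of control, and the second had it at 61.1%. Its span shares 566 bases with Batf2 on the opposite strand, a gene listed at 0 to 0.216 FPKM in mutants and at 0 in all controls.

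Arl3, the GTPase that acts on both kinds of carrier in the cilium, had the highest level of the 7 genes. It lies on the same chromosome from 46531096 to 46573198. It measured 44.0, 49.4, 51.3, 67.3 and 58.2 FPKM in mutants 1 to 5, against 37.9, 54.7, 43.4, 53.8 and 77.4 FPKM in controls 1 to 5. Its libraries separated by library set and not by genotype. The second set lay at 58.2 to 77.4 FPKM and the first at 37.9 to 54.7 FPKM, whereas the genotype means were 54.0 ± 8.97 FPKM in mutants and 53.4 ± 15.1 FPKM in controls (SD, n = 5 each). The log2 difference was 0.04 (SE 0.18), and its sign was negative after rescaling to a median ratio (-0.07) or to the protein-coding sum (-0.01), after quantile normalization (-0.03) and with the library set as a term (-0.06).

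Arl13b, the activator of Arl3 (chromosome 16, 62793685 to 62847040, minus strand), measured 10.7, 7.59, 8.41, 9.51 and 8.92 FPKM in mutants 1 to 5. In controls 1 to 5 it measured 7.28, 7.73, 6.63, 8.56 and 13.5 FPKM. Control 5 stood above every other library, and the other 4 controls, at 6.63 to 8.56 FPKM, overlapped the lower part of the mutants' range. The log2 difference was 0.07 (SE 0.17) with all libraries and 0.23 without control 5, and it was -0.03 after median ratio rescaling. Arl13b spans Stx19 on the other strand, which stayed between 0.165 and 0.569 FPKM in mutants and between 0.268 and 0.855 FPKM in controls.

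Inpp5e, the farnesylated phosphatase that Pde6d carries to the cilium (chromosome 2, 26396249 to 26409203, minus strand), measured 9.08, 9.28, 6.76, 6.97 and 6.81 FPKM in mutants 1 to 5. In controls 1 to 5 it measured 5.78, 6.17, 6.88, 9.92 and 8.48 FPKM. High and low libraries were found in both genotypes, and the log2 difference was 0.07 (SE 0.15), or -0.04 after median ratio rescaling. Its 3′ end shares 874 bases with Pmpca on the opposite strand, at 17.1 to 19.4 FPKM in mutants and 13.9 to 20.3 FPKM in controls. The sources used here do not say if reads were assigned by strand, so reads of Pmpca may be part of the level of Inpp5e.

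**Figure D2:**
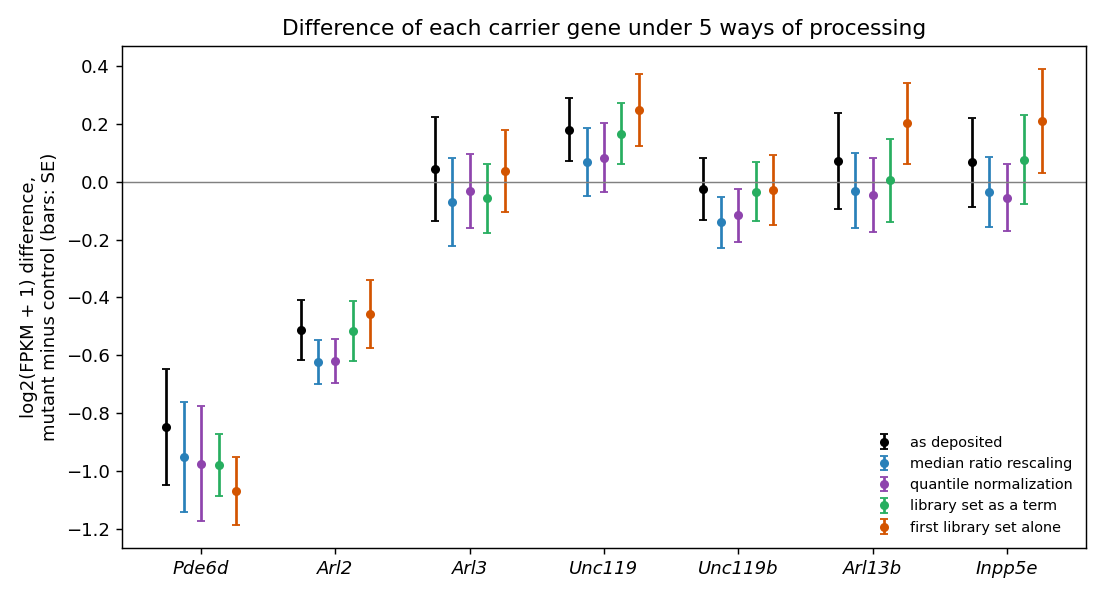
Difference in log2(FPKM + 1), mutant minus control, for each of the 7 genes under 5 ways of processing, with bars for the SE of the limma fit. Pde6d stays between -1.07 and -0.85 and Arl2 between -0.62 and -0.46, while Arl3, Arl13b and Inpp5e lie on both sides of 0.

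The order of levels differed between the groups at the place of Pde6d and Arl2. FPKM is scaled by transcript length, so levels of different genes can be set side by side. In mutants the order of means was Arl3, Unc119b, Unc119, Arl2, Arl13b, Inpp5e and Pde6d. The first 3 did not overlap with their neighbours, whereas Arl2, Arl13b, Inpp5e and Pde6d each overlapped with the next. In controls the order was Arl3, Unc119b, Arl2, Unc119, Pde6d, Arl13b and Inpp5e. Unc119b stood clear of Arl2, and the ranges of each other neighbouring pair overlapped. Within libraries, Arl3 still stood above Unc119b, and Pde6d above Arl13b, in each of the 5 controls. The remaining overlapping pairs changed order between controls. By these means Pde6d was the fifth of the 7 genes in controls and the last in mutants, but its place in mutants differed with the library set. It was the lowest of the 7 in mutants 1 to 3, whereas in mutants 4 and 5 it stood above Arl2, Arl13b and Inpp5e.

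Ratios within a library do not depend on how libraries are scaled, and here they set Pde6d and Arl2 against members whose groups overlapped. The members were chosen with the comparison of groups in view, so these ratios restate it and support nothing further. The ratio of Pde6d to Arl3 was 0.130, 0.113, 0.104, 0.168 and 0.163 in mutants 1 to 5, against 0.302, 0.254, 0.273, 0.260 and 0.234 in controls 1 to 5. Each mutant lay below each control, and mutants 4 and 5 were the highest mutants. Relative to Unc119 it was 0.456 ± 0.171 in mutants and 0.963 ± 0.195 in controls (SD, n = 5 each), without overlap. The ratio of Arl2 to Unc119b was 0.312 ± 0.0424 in mutants and 0.448 ± 0.0268 in controls, also without overlap. Relative to Arl3 the groups overlapped for Arl2, at 0.196 ± 0.0330 in mutants and 0.300 ± 0.0734 in controls, with mutant 1 at 0.225 and control 5 at 0.213. The ratio of Pde6d to Arl2 overlapped between the groups, at 0.730 ± 0.280 in mutants and 0.909 ± 0.145 in controls.

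**Figure D3:**
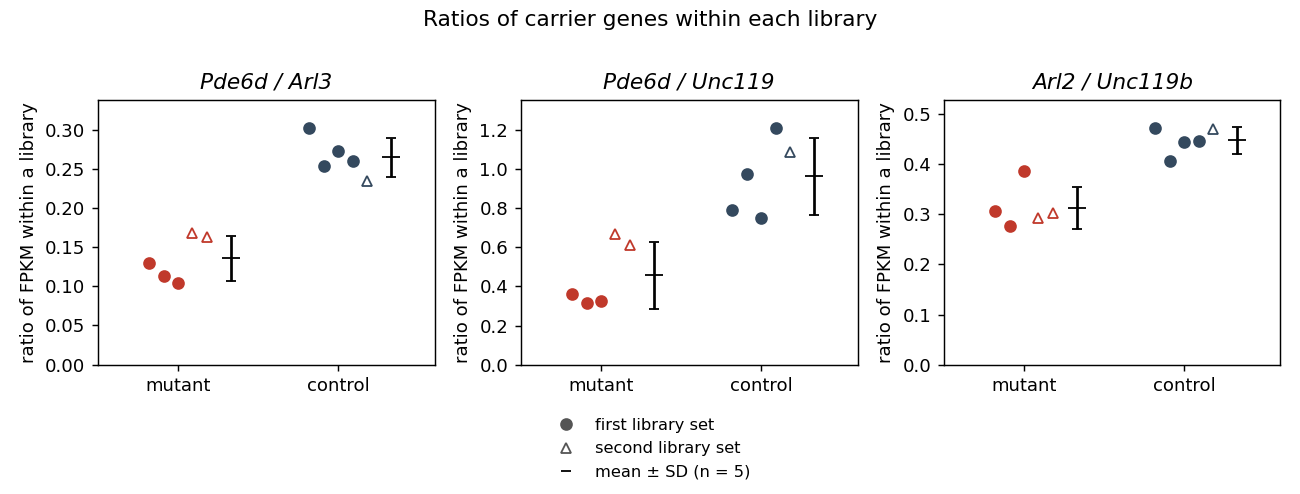
Ratio of FPKM of a pair of genes within each library, for 5 mutants (left) and 5 controls (right), with filled circles for the first and open triangles for the second library set and bars for the mean ± SD. Pde6d relative to Arl3 lies at 0.104 to 0.168 in mutants and 0.234 to 0.302 in controls.

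Over the whole table, limma was run on the 13522 genes that reached 1 FPKM in 5 or more of the 10 libraries, and all 7 members passed that filter. Groups without overlap and lower in mutants made up 0.377% of tested genes (51), and 2 of the 7 members were of this kind. The opposite pattern, higher in mutants, held for 1.52% of tested genes (206) and 0 members. By limma with Benjamini-Hochberg adjustment 0 of 7 members passed 0.05, where 0.155% of all genes did (21, of which 12 or 0.0887% were higher and 9 or 0.0666% lower in mutants), and 2 members, Pde6d and Arl2, had an unadjusted p under 0.05, where 8.76% of all genes did. With the library set as a term Pde6d and Arl2 passed, among 74 genes called (0.547%), of which 44 were higher (0.325%) and 30 lower in mutants (0.222%). Arl2 alone passed after median ratio rescaling, protein-coding rescaling and quantile normalization, and Pde6d alone in the first library set. The members were chosen from this contrast, so nothing is read from these counts. The median log2 difference of the 7 members was 0.04, beside 0.11 for all tested genes.

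The intron ends that could be read bear on the class of intron only in small part. The principal transcripts of the 7 genes have 39 introns. The first 8 bases of 10 introns and the last 40 bases of 9 were read from annotated transcripts that run on into the intron (GENCODE M21, GRCm38), and no genome sequence was used. Of the 10 readable starts, 0 came within 1 mismatch of ATATCCTT or GTATCCTT, the start of most minor introns. Among all readable starts of protein-coding genes, 1.06% of 23097 did. Pde6d introns 2, 3 and 4 began with these letters, of which intron 3 was the closest, with 2 mismatches:
Pde6d intron 2: gtactttg
Pde6d intron 3: gtattctg
Pde6d intron 4: gtgagtga
Of the 9 readable ends, 1 came within 1 mismatch of TCCTTAAC, the branch site of minor introns, beside 2.59% of 18236 readable ends of protein-coding genes. It was the end of intron 1 of Arl2, on the minus strand, where capitals mark the matched letters:
Arl2 intron 1, chr19:6137841-6137880: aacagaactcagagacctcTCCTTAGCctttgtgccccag
The match is a description of letters and not a mapped branch site. The start of that intron and both ends of intron 1 of Pde6d, which is 34682 bases long, were not read here.

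Genes whose profile over the 10 libraries was most like that of a member were found among 11040 other protein-coding genes tested, by the root-mean-square difference of centred log2 values. This distance takes in the difference between the groups, so genes near Pde6d or Arl2 share much of their lower level in mutants. In the same way, genes near Arl3 share its split by library set. Nearest to Pde6d were Lsm5, a protein of the Lsm rings (0.20), Sptssa, a small subunit of serine palmitoyltransferase (0.22), and Polr2e, a component of all nuclear RNA polymerases (0.26). Lsm5 averaged 39.1 ± 8.83 FPKM in mutants and 62.2 ± 17.3 FPKM in controls, and Polr2e 39.8 ± 5.34 FPKM in mutants and 61.4 ± 5.56 FPKM in controls (SD, n = 5 each). Arl2 stood at a distance of 0.37 from Pde6d, which placed it at rank 44 of 11040 among profiles nearest to Pde6d, while Pde6d was at rank 5395 among those nearest to Arl2. Nearest to Arl2 were Kifap3, which binds kinesin-2 (0.10), Fig4, a phosphoinositide phosphatase (0.10), and Mapk11, a p38 kinase (0.10). Fig4 averaged 5.27 ± 0.468 FPKM in mutants and 7.87 ± 0.669 FPKM in controls. Nearest to Arl3 were S1pr1, a sphingolipid receptor (0.08), Haus8, a subunit of augmin (0.08), and Psmd7, a subunit of the proteasome (0.09), with like means in both groups, such as 44.1 ± 6.16 FPKM in mutants and 43.6 ± 8.09 FPKM in controls for Psmd7.

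**Figure D4:**
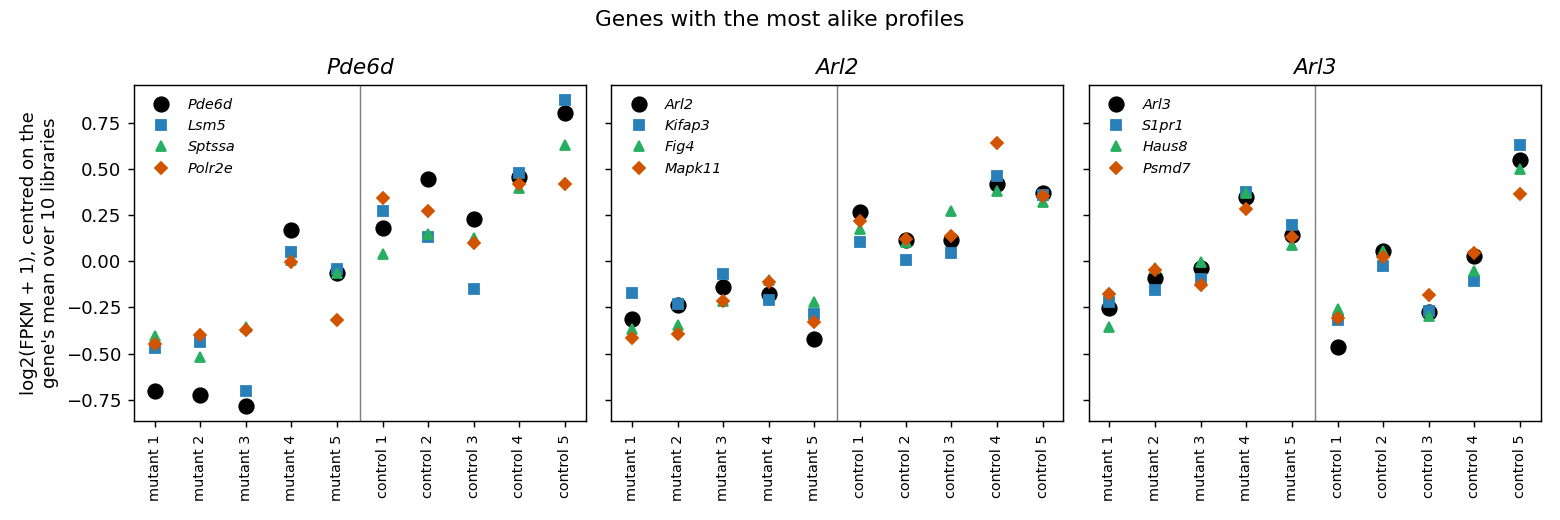
Level of Pde6d, Arl2 and Arl3 (black circles) and of the 3 genes with the most alike profile, as log2(FPKM + 1) centred on the mean of each gene over the 10 libraries, with mutants left of the line and controls right of it. The genes nearest to Pde6d and Arl2 have lower means in mutants. Those nearest to Arl3 are highest in mutant 4, mutant 5 and control 5. Both traits follow from the choice by profile.

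Of the other genes of lipid-anchor traffic, 140 listed genes were found and 118 were tested, and 0 passed by limma in either direction. An unadjusted p under 0.05 was found for 8 of them, 6 higher and 2 lower in mutants, where 8.76% of all tested genes had one, and the median log2 difference was 0.09 beside 0.11 for all genes. Among 13 enzymes that make and process prenyl anchors, Fdps, the synthase of farnesyl diphosphate, averaged 41.3 ± 5.02 FPKM in mutants and 49.6 ± 6.16 FPKM in controls (SD, n = 5 each; limma, adjusted p = 0.568). Rabggta, a subunit of the transferase that modifies Rab proteins, averaged 4.65 ± 0.522 FPKM in mutants and 5.85 ± 1.40 FPKM in controls (limma, adjusted p = 0.609). The list ran from a log2 difference of -0.26 to 0.25.

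Regulators and partners of Arl2 and Arl3 had a median log2 difference of 0.07 over 12 genes. Rp2h, the mouse counterpart of the human ARL3 GTPase activator RP2, averaged 6.39 ± 0.714 FPKM in mutants and 6.16 ± 0.628 FPKM in controls (SD, n = 5 each). Arl2bp, which binds Arl2 and Arl3, averaged 31.4 ± 2.41 FPKM in mutants and 27.6 ± 4.89 FPKM in controls. Tbcd, the tubulin cofactor that binds Arl2, averaged 12.9 ± 1.30 FPKM in mutants and 10.2 ± 1.80 FPKM in controls (limma, adjusted p = 0.510), and Elmod1, an activator of Arl2 GTP hydrolysis, lay at a log2 difference of 0.48 (SE 0.23; limma, adjusted p = 0.587). The groups overlapped for each of these genes.

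The 5 other carriers of prenylated proteins had a median log2 difference of 0.20, from -0.04 to 0.58. Arhgdib, a GDP dissociation inhibitor of blood cells, averaged 10.1 ± 4.03 FPKM in mutants and 6.19 ± 1.87 FPKM in controls (SD, n = 5 each; limma, adjusted p = 0.574). Among 13 prenylated cargoes, Rheb, the activator of mTORC1, averaged 46.6 ± 5.36 FPKM in mutants and 46.2 ± 7.30 FPKM in controls. Rap2b and Rab13 had the smallest p of that list, at log2 differences of 0.23 and 0.31 (limma, adjusted p = 0.568 and 0.597). Of 9 tested myristoylated cargoes and N-myristoyltransferases, the kinase Fyn averaged 14.5 ± 1.38 FPKM in mutants and 11.1 ± 1.57 FPKM in controls (limma, adjusted p = 0.357), the smallest p of all these lists, and Lyn lay at 0.25 (limma, adjusted p = 0.658).

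Among 19 tested GTPases of the Arf and Arf-like families outside the members, Arl6, which recruits the BBSome to ciliary membranes, averaged 25.4 ± 3.58 FPKM in mutants and 31.1 ± 4.44 FPKM in controls (SD, n = 5 each; limma, adjusted p = 0.564). Arl8a, a lysosomal GTPase, averaged 8.96 ± 2.93 FPKM in mutants and 6.19 ± 1.05 FPKM in controls (limma, adjusted p = 0.566). The log2 differences of this family ran from -0.28 to 0.43. The 30 genes linked to Joubert syndrome or the ciliary transition zone lay between -0.30 and 0.28, with 0 at an unadjusted p under 0.05. Ahi1 averaged 7.06 ± 0.353 FPKM in mutants and 5.78 ± 1.58 FPKM in controls (limma, adjusted p = 0.609), and 2700049A03Rik, also called Talpid3, 4.80 ± 0.476 FPKM in mutants and 3.85 ± 0.939 FPKM in controls (limma, adjusted p = 0.593). Inositol polyphosphate 5-phosphatases other than Inpp5e lay between -0.18, for Ocrl (limma, adjusted p = 0.666), and 0.19, for Inpp5b (limma, adjusted p = 0.735). In the Hedgehog pathway, which signals through the cilium, Smo averaged 24.0 ± 1.43 FPKM in mutants and 21.5 ± 1.36 FPKM in controls (limma, adjusted p = 0.649), and Gpr161 lay at 0.22 (limma, adjusted p = 0.623). None of the 10 phosphodiesterase 6 and visual cascade genes passed the filter, and 0 of the 10 were at 0 in all libraries. The highest values, 0.846 FPKM in mutants and 0.988 FPKM in controls, were both for Pde6b, a catalytic subunit of the rod phosphodiesterase.

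**Figure D5:**
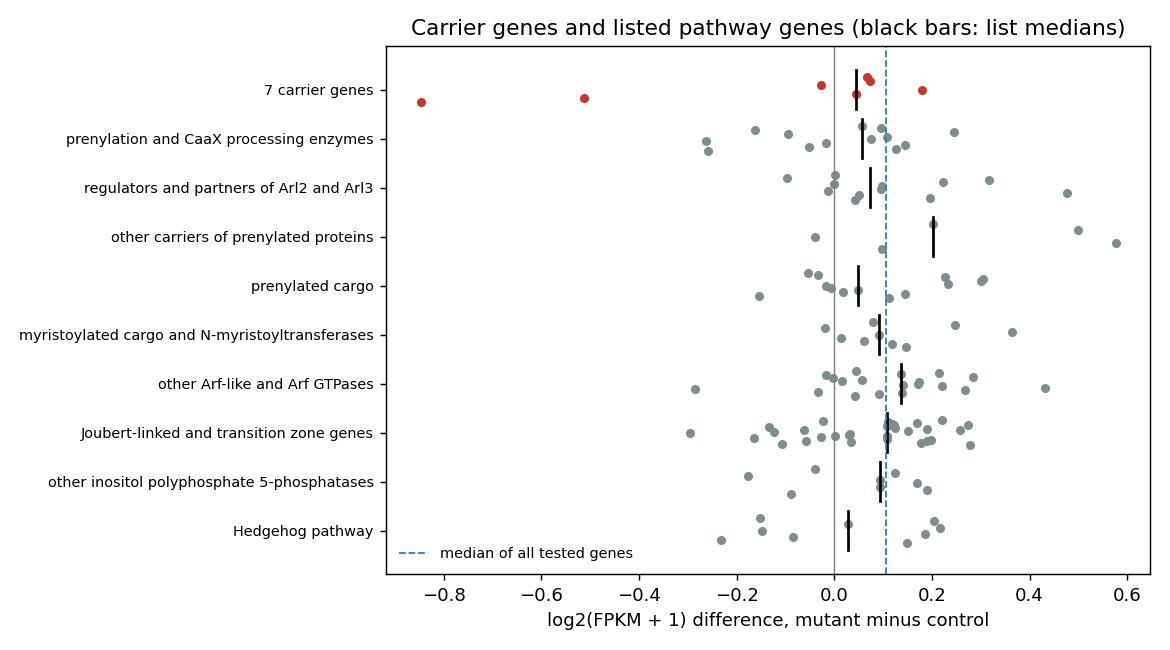
Difference in log2(FPKM + 1), mutant minus control, of the 7 members (red) and of each tested gene of 9 pathway lists (grey), with black bars for list medians and a dashed line at 0.11, the median of all tested genes. Pde6d lies at -0.85 and Arl2 at -0.51, and the lowest listed pathway gene at -0.30. The members were chosen with this contrast in view, so their distance from the lists supports nothing.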

How the data were processed

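RNA was extracted with Trizol and libraries were made with a stranded total RNA kit after Ribo-Zero removal of ribosomal RNA, per the labels' protocols. HISAT2 and GRCm38 (mm10) are named in the submitters' processing notes. The authors deposited 1 FPKM value per gene symbol and library, and the program that gave these FPKM values is not named there. The FPKM of a library summed to between 1996700 and 3051430, with 9.82 to 18.6% in protein-coding genes. Fragment numbers were estimated from the most frequent value of a single fragment, shared by 49 to 84 of 1102 to 1484 single-transcript genes, and are rough, so no counting intervals are given.

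Genotypes were compared on the log2(FPKM + 1) scale by limma 3.58.1 (R 4.3.3), with an intensity trend, robust moderation and no covariate. A gene entered if it reached 1 FPKM in 5 libraries or more, and p-values were adjusted by Benjamini-Hochberg at 0.05. A pseudocount makes the differences of low genes smaller than they are. Lists were summarised by counts and medians. Tables were made with pandas 2.3.3 in Python 3.11.15. Members and lists were chosen with earlier results of these data known. Named genes were the members, Rnu11, the 2 genes of smallest p in each pathway list, as none passed, and the 3 most alike genes for Pde6d, Arl2 and Arl3. A gene that the rule would name is not reported here. Rp2h, Arl2bp and Rheb were named after their values were seen, for their roles. Alternatives were another pseudocount, no filter, 2 rescalings, quantile normalization, the library set or the replicate number as a term, and leaving out each library. The first library set alone was added after seeing the data.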

Additional observations from a re-analysis of the deposited data

Results flagged for a closer look

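In 3 of 52 groups of 5 libraries (26 genes in 2 groups), a single library stood far from the others by Dixon's gap test, and chance gives about 1 in 20. Arl13b in control 5, at 13.5 FPKM, lay above 6.63 to 8.56 FPKM in the other controls. 2700049A03Rik in mutant 2, at 3.96 FPKM, lay below 4.87 to 5.10 FPKM in the other mutants. Lyn in control 2, at 1.95 FPKM, lay above 1.27 to 1.41 FPKM in the other controls.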

How the results depend on the processing

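The log2 difference of Pde6d ran from -1.07 to -0.85 over the alternatives that kept all libraries or the first set, and from -0.995 to -0.75 when 1 library was left out. That of Arl2 ran from -0.62 to -0.46 and from -0.55 to -0.47, and that of Unc119 from 0.07 to 0.25 and from 0.11 to 0.23. Over the same alternatives Arl3 ran from -0.07 to 0.04, Unc119b from -0.14 to -0.03, Arl13b from -0.05 to 0.20 and Inpp5e from -0.06 to 0.21. When 1 library was left out Arl3 ran from -0.07 to 0.19, Unc119b from -0.07 to 0.02, Arl13b from -0.01 to 0.23 and Inpp5e from -0.01 to 0.17. These 4 genes changed sign in some fits, by less than the spread between replicates. Pathway genes gave 0 calls in each fit run. Rnu11 in mutants stood at 35.7 and 36.6% of control after the 2 rescalings and at 33.3 to 43.7% when 1 library was left out.

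The 21 genes called over the whole table became 2 with no filter on low values, 33 after median ratio rescaling (12 higher, 21 lower, where the fit on deposited values had 12 and 9), 35 after quantile normalization (13 higher, 22 lower), 74 with the library set as a term and 89 in the first library set alone. Leaving out 1 library gave between 2 and 80 calls. Of the mutants, the loss of number 1 gave 6, of number 2 or 3 gave 2, of number 4 gave 21 and of number 5 gave 8. Of the controls, the loss of number 1 or 2 gave 2, of number 3 gave 4, of number 4 gave 14 and of number 5 gave 80. The cause was not tested. The rescalings brought the median of all genes to 0.01 and 0.06, from 0.11. Rescaling to the protein-coding sum gave 25 (9 higher, 16 lower). With the replicate number as a block 14 genes were called. Same-numbered libraries correlated at 0.08, 0.16, 0.24, -0.11 and 0.52 in their deviations. Mutants 2, 3 and 5 but not 1 and 4 correlated best with the control of their own number. This does not settle if the numbers mark pairs, as number 4 joins libraries of different sets. The main fit took no pairs. With the block the SE was 0.14 for Pde6d (0.20 without it) and 0.12 for Arl2 (0.10 without it). Depth is known only roughly, and Pde6d had the fewest fragments of the members in each library but control 4.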
